A study of Mus musculus with 7 samples.

Results

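Skin regulatory T cell (Treg) libraries held 34.9- to 45.6-fold more transcript of the 3 classical MHC class II chain genes H2-Aa, H2-Ab1 and H2-Eb1 than Treg libraries from skin-draining lymph nodes (SDLN), with 4 and 3 libraries. The skin libraries differed widely: the lowest, skin 3, stood at 2.51 to 4.32 times the SDLN mean, and the highest, skin 4, at 16.8 to 47.9 times skin 3. H2-Ob, a chain of the inhibitor of class II peptide loading, was instead lower in every skin library than in any SDLN library. The 9 genes described here are the class II presentation genes Cd74, H2-Aa, H2-Ab1, H2-Eb1, H2-DMa, H2-DMb1, H2-Oa, H2-Ob and Ciita, found by their symbols among the 24084 gene symbols of the count table. They were chosen by function with their levels in these same libraries already known, so their levels and fold changes are a description. No p is printed for any of them, and the text states only which passed a threshold over all genes. All 9 passed the low-count filter that left 11376 genes for testing.

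The libraries came from Tregs sorted from Foxp3-DTR mice aged 6 weeks, a strain whose Foxp3 gene also carries a diphtheria toxin receptor and a green fluorescent protein. Foxp3 is the transcription factor that defines the Treg lineage, so the reporter marks these cells, and both tissues carried the same allele with no toxin treatment named. There were 3 SDLN libraries and 4 libraries from skin in telogen, the phase in which hair follicles rest. The sources used here name neither the sort gates nor the number of animals in each library, so the spread between libraries of a tissue may be technical. The comparison asks how Tregs that live in skin differ in their transcripts from Tregs of the nodes that drain it.

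Class II molecules carry peptides from the endosomes to the surface of antigen-presenting cells, where CD4 T cells read them. H2-Aa and H2-Ab1 encode the alpha and beta chains of I-A, and H2-Eb1 encodes the beta chain of I-E. Cd74, the invariant chain, holds the groove of a new class II molecule closed and takes it to the endosome, H2-DM then exchanges the invariant chain fragment for peptides, and H2-DO restrains H2-DM. Ciita is the coactivator that switches the set on through a shared promoter element bound by RFX and NF-Y factors. Dendritic cells, macrophages and B cells make class II constitutively, whereas mouse T cells are generally held not to.

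The promoter element is shown first, because it is the known route by which Ciita acts on class II genes. Promoter windows from RefSeq on GRCm38.p6, from 250 bases before to 50 bases after the transcription start, were matched for 6 of the 9 genes, all but Cd74, H2-Ab1 and Ciita. Each was searched on both strands for GNAAC, the core of the site bound by RFX, followed after 24 to 32 bases by ATTGG, the core of the NF-Y site. In the windows below, each with 30 bases to either side, those 2 cores are in capitals.
H2-Aa, chr17:34287837-34287934, minus strand: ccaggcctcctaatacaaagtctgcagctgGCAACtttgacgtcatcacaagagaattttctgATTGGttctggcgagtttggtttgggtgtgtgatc
H2-Eb1, chr17:34305746-34305842, plus strand: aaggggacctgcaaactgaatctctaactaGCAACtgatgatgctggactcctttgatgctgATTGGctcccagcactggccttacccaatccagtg
H2-DMb1, chr17:34153067-34153164, plus strand: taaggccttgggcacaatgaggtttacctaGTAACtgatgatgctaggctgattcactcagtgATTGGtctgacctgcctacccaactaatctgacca
H2-Oa, chr17:34092273-34092370, plus strand: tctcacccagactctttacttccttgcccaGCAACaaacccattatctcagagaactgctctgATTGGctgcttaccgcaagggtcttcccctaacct
H2-Ob, chr17:34238788-34238882, plus strand: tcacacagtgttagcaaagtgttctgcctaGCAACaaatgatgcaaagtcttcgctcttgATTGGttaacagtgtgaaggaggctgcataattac

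The pair of cores was present in the promoters of 5 of the 6 genes and in 1.54% of 32851 promoter windows of the same length. It began 76 to 94 bases before the transcription start. The gap between the cores was 28 bases in H2-Aa, H2-DMb1 and H2-Oa, 27 in H2-Eb1 and 25 in H2-Ob. Neither of the 2 H2-DMa windows, 34122582 to 34122881 and 34125268 to 34125567, held these letters at this spacing. Both lie inside the annotated gene, 34119541 to 34139101, and the first overlaps the Brd2 gene. Other stretches of H2-DMa were not searched, so the pair may be present elsewhere in it. H2-Aa and H2-Eb1, which were higher in skin, and H2-Ob, which was lower, thus share the arrangement. The single core GNAAC is common, at 84.8% of all windows, and ATTGG was in 37.4%.

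The total count over genes was 13123241 to 14785751 per SDLN library and 11009609 to 13921238 per skin library, and genes with at least 1 count numbered 13408 to 13845 and 9690 to 12639. Levels below are CPM, the counts of a gene on a common, TMM-scaled library size, where 3 counts stand for 0.204 to 0.276 CPM. Several libraries stood apart. SDLN 3 had 3877 counts of the Y-linked gene Ddx3y, and no other library had more than 2. It had 4 counts of the X-linked gene Xist, and every other library had at least 4653. SDLN 3 thus differed in both sex-linked genes from SDLN 1 and 2 and from every skin library. Skin 1 is skin by its title and source, but 1 of its tags gives the lymph node as tissue. Skin 3 carried 802 CPM of 8 keratinocyte markers and 2000.5 CPM of 6 fibroblast markers, against at most 20.7 and 8.84 CPM in the other skin libraries. The Treg label was checked on 10 T cell markers, all of which had counts in all 7 libraries. Foxp3 ran from 69.0 to 102 CPM in SDLN and from 107 to 248 CPM in skin. Together the T cell markers made 12343 to 14753 CPM in SDLN, 7694 CPM in skin 3, and 11589 to 13066 CPM in skin 1, 2 and 4.

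H2-Aa, the I-A alpha chain (chromosome 17, 34282744 to 34287823), had 16.5, 22.2 and 29.2 CPM in SDLN 1 to 3 and 488, 694, 56.8 and 1921 CPM in skin 1 to 4. Every skin library was above every SDLN library, skin 4 was the highest and skin 3 came closest to SDLN. The log2 fold change, skin over SDLN, was 5.13 (SE 1.11), a 34.9-fold difference. H2-Ab1, the I-A beta chain (chromosome 17, 34257689 to 34269419), had 9.43, 13.9 and 4.25 CPM in SDLN and 307, 325, 39.7 and 666 CPM in skin. The tissues again did not overlap, and the log2 fold change was 5.18 (SE 0.99). H2-Eb1, the I-E beta chain (chromosome 17, 34305867 to 34316674), had 8.34, 10.1 and 17.8 CPM in SDLN and 256, 376, 32.3 and 1546 CPM in skin, with a log2 fold change of 5.51 (SE 1.28). It had the widest range in skin of the 3 chains, with skin 4 at 47.9 times skin 3, against 33.8 times for H2-Aa and 16.8 times for H2-Ab1. Without skin 4 the log2 fold changes were 4.19 for H2-Aa, 4.61 for H2-Ab1 and 4.20 for H2-Eb1.

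Cd74, the invariant chain (chromosome 18, 60803848 to 60812652), was the most abundant of the 9 genes in every library. It had 300.1, 340.4 and 490.5 CPM in SDLN and 2183, 1505, 488 and 7055 CPM in skin. Skin 3 fell within the SDLN range, so the tissues overlapped, although skin 1, 2 and 4 were all above SDLN. The log2 fold change was 2.90 (SE 0.84), or 7.45-fold, and 1.88 without skin 4. Ciita, the coactivator (chromosome 16, 10480059 to 10528418), had 1.97, 4.28 and 3.71 CPM in SDLN and 31.0, 24.2, 0.529 and 33.1 CPM in skin. It had 337, 299, 6 and 464 counts in skin 1 to 4, so that skin 3 was below all SDLN libraries and the other skin libraries were above them. Its log2 fold change was 2.74 (SE 1.37).

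**Figure D1:**
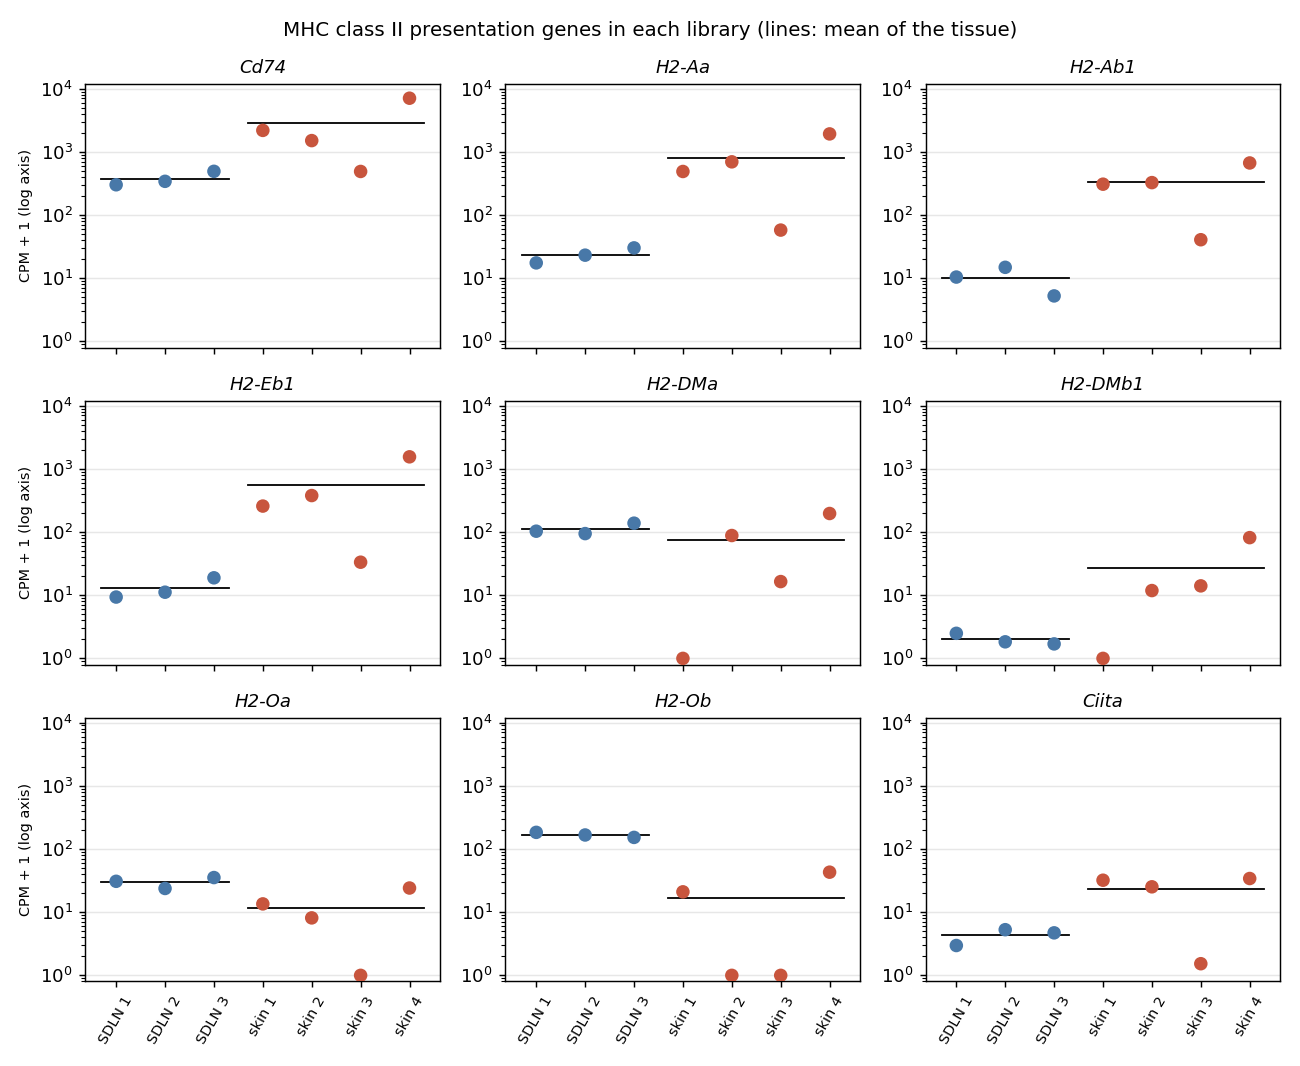
Level of each of the 9 class II presentation genes in each library, as CPM + 1 on a log axis; blue points are SDLN libraries, red points skin libraries, and lines the mean of each tissue. For H2-Aa, H2-Ab1 and H2-Eb1 all 4 skin points lie above the SDLN points, for H2-Ob all lie below, and skin 4 is the highest skin point in all 9 panels.

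The 4 peptide-loading genes differed among themselves. H2-DMa, the alpha chain of the peptide exchange factor (chromosome 17, 34119541 to 34139101), had 102, 93.3 and 137 CPM in SDLN and 0, 87.0, 15.4 and 195 CPM in skin. SDLN libraries were even, while skin ran from no count in skin 1 to a level above all SDLN libraries in skin 4. The log2 fold change was -0.57 (SE 1.502), and -1.70 without skin 4. H2-DMb1, its beta chain (chromosome 17, 34153072 to 34160230), had 1.49, 0.828 and 0.695 CPM in SDLN and 0, 10.8, 13.0 and 80.4 CPM in skin. Skin 1 was again without a count and the other skin libraries were above SDLN, with a log2 fold change of 4.68 (SE 2.09), and 2.95 without skin 4. The 0 counts in skin 1 allow up to 0.276 CPM of each. H2-DMb1 has a near-identical neighbour, H2-DMb2, and the table keeps reads with several alignments apart, so the levels of both are uncertain.

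H2-Ob, the beta chain of the H2-DM inhibitor (chromosome 17, 34238903 to 34254414), was lower in every skin library than in any SDLN library. It had 182, 165 and 151 CPM in SDLN and 19.97, 0, 0 and 41.9 CPM in skin. The log2 fold change was -3.42 (SE 1.81), or 10.7-fold lower, and -4.64 without skin 4. Skin 2 and skin 3 had no count, which allows up to 0.243 and 0.264 CPM there. H2-Oa, the alpha chain (chromosome 17, 34092340 to 34095234), had 29.8, 22.7 and 34.3 CPM in SDLN and 12.5, 7.12, 0 and 23.1 CPM in skin. Only skin 4 reached the SDLN range, and the log2 fold change was -1.44 (SE 1.47), and -2.14 without skin 4.

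In the fit over all genes, 3 of the 9 genes were called at an adjusted p under 0.05 in edgeR's quasi-likelihood test, the chains H2-Aa, H2-Ab1 and H2-Eb1, all higher in skin. Of all genes tested, 7.24% were called, 3.28% as higher and 3.96% as lower in skin. Nothing is read from the members' share, since the genes were chosen on this contrast. The 3 chains and no other member lay above SDLN in every skin library, as 10.1% of all tested genes did, and H2-Ob lay below in every skin library, as 16.5% did. The median log2 fold change was 2.90 over the 9 genes and 0.05 over all genes tested. The calls rest on all 3 SDLN libraries, as do most calls over all genes. Without SDLN 1, 2 or 3 no member was called, and 48, 43 and 76 genes were called in all, against 824 with every library. Each time 4 members had an unadjusted p under 0.05. DESeq2 called 5 members and 1430 genes in all, and limma-voom 1 member and 1000 genes. Without skin 2, edgeR called 1 member, namely H2-Ab1, and 971 genes in all.

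The wide range among skin libraries was known when the genes were chosen, so its size is a description. The median coefficient of variation among skin libraries was 1.04 over the 9 genes and 0.7499 over all tested genes, against 0.282 and 0.187 among SDLN libraries. Ciita, at 0.673 in skin, was below the median of all genes. Skin 4 was the highest skin library for 9 of 9 genes, as it was for 22.0% of all tested genes. Skin 3 was the lowest for 6 of the 9 and for 16.6% of all tested genes, with ties given to the library of the lower number. Of the 9 genes, 4 had no count in at least 1 skin library, against 29.5% of all tested genes, and 0 lacked a count in an SDLN library, against 1.17%. Among 4143 genes with an SDLN mean of at least 50 CPM, which include H2-DMa and H2-Ob, 63 had no count in skin 1, 84 in skin 2, 18 in skin 3 and 19 in skin 4. So H2-DMa was among 1.52% of such genes in skin 1, and H2-Ob among 2.03% in skin 2 and 0.434% in skin 3.

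Divided by the exon length of each gene in kilobases, the levels can be set beside each other. Length here is the union of all annotated exons, which understates genes with long exons that are rarely used. In SDLN, Cd74 stood at 225 ± 59.8 CPM per kb (SD, n = 3). Next came H2-DMa at 32.1 ± 6.69, H2-Ob at 30.9 ± 2.86 and H2-Oa at 20.6 ± 4.15 CPM per kb. H2-DMa and H2-Ob did not differ beyond their spread, and both were above H2-Oa in every SDLN library. The chains followed, with H2-Eb1 at 6.23 ± 2.59, H2-Aa at 5.95 ± 1.68 and H2-Ab1 at 3.58 ± 1.88 CPM per kb, 3 levels that overlapped. H2-DMb1 at 0.598 ± 0.254 and Ciita at 0.348 ± 0.126 CPM per kb came last.

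In skin the order changed. Cd74 led at 1672 ± 1737 CPM per kb (SD, n = 4), followed by H2-Eb1 at 284 ± 349, H2-Aa at 208 ± 210 and H2-Ab1 at 130.1 ± 99.9 CPM per kb. H2-DMa stood at 21.6 ± 25.8, H2-DMb1 at 15.5 ± 21.8, H2-Oa at 7.60 ± 6.92, H2-Ob at 2.88 ± 3.72 and Ciita at 2.33 ± 1.57 CPM per kb. With SDs this wide, neighbours in this order did not differ beyond their spread over libraries. Within single libraries the order of groups was steadier: the 3 chains were each above the 4 H2-DM and H2-DO genes in every skin library, and each below H2-DMa, H2-Oa and H2-Ob in every SDLN library.

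The make-up of class II transcripts separated the tissues in every library. H2-Aa, H2-Ab1 and H2-Eb1 together made up, of the sum per kb over the 9 genes, 4.45%, 5.60% and 4.59% in the SDLN libraries, against 22.4%, 35.0%, 13.4% and 26.5% in the skin libraries. H2-DM and H2-DO together were 30.9%, 25.3% and 23.0% in SDLN and 0.744%, 2.55%, 3.49% and 2.18% in skin. Neither share overlapped between the tissues, which is a description, since the genes were chosen with these levels known. The shares are relative to the sum over the 9 genes, and a lower share is not always a lower level. In skin 4, H2-DMa and H2-DMb1 stood at 56.6 and 47.9 CPM per kb, above every SDLN library. H2-Oa, at 16.4 CPM per kb, was there within the SDLN range, and H2-Ob, at 7.79, was below it. The share of Cd74 did overlap, at 64.6% to 72.4% in SDLN and 62.3% to 83.1% in skin.

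**Figure D2:**
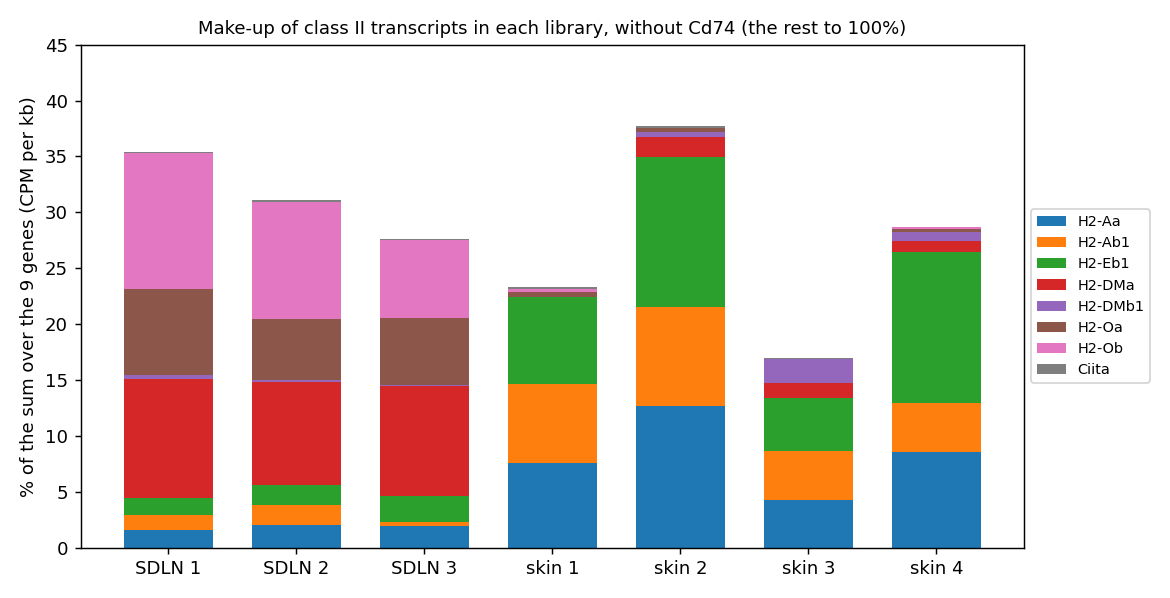
Share of each gene other than Cd74 in the sum of CPM per kb over the 9 class II presentation genes, one stacked bar for each library; Cd74 makes up the rest to 100%. The H2-DMa, H2-Oa and H2-Ob segments fill most of the SDLN bars, and the H2-Aa, H2-Ab1 and H2-Eb1 segments most of the skin bars.

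Ratios between partners showed where libraries departed. Cd74 stood 34.7 to 41.2 times above H2-Aa per kb in SDLN and 10.1, 4.91, 19.5 and 8.31 times above it in skin 1 to 4. The 2 chains of I-A were nearly balanced in most libraries, with H2-Aa over H2-Ab1 at 1.18 and 1.08 in SDLN 1 and 2 and 1.08, 1.44, 0.968 and 1.95 in skin 1 to 4. SDLN 3 differed, at 4.65, because it had 55 counts of H2-Ab1 against 139 and 201 in SDLN 1 and 2, while its H2-Aa was the highest of the 3. The same library had H2-Eb1 over H2-Ab1 at 5.55, against 1.17 and 0.966 in SDLN 1 and 2. The chains of H2-DM were far from balanced in SDLN, where H2-DMa was 33.3, 54.9 and 96.0 times H2-DMb1 per kb, and closer in skin 2, 3 and 4, at 3.91, 0.576 and 1.18. H2-Ob over H2-Oa was 1.16 to 1.91 in SDLN, 0.417 in skin 1, 0.475 in skin 4 and 0 in skin 2.

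Of the 9 genes, 7 lie together on chromosome 17, from 34092340 to 34316674 (mm10), with the immunoproteasome and peptide transporter genes of class I between them. The table had 13 genes in this stretch of 224 kb. None of the 6 genes there that are not members was higher in skin by the test, and 1, Psmb8, was lower. Brd2, a bromodomain protein whose gene overlaps H2-DMa on the opposite strand, had a log2 fold change of 0.59 (SE 0.26, edgeR adjusted p = 0.278). Dexi overlaps Ciita and BC051537 overlaps H2-Oa, likewise on the opposite strand. No source used here states whether counting used the strand, so the reads of these pairs cannot be told apart. H2-Ob, between Tap2 and H2-Ab1, was lower in skin while H2-Ab1, the next gene of the table, was higher.

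**Figure D3:**
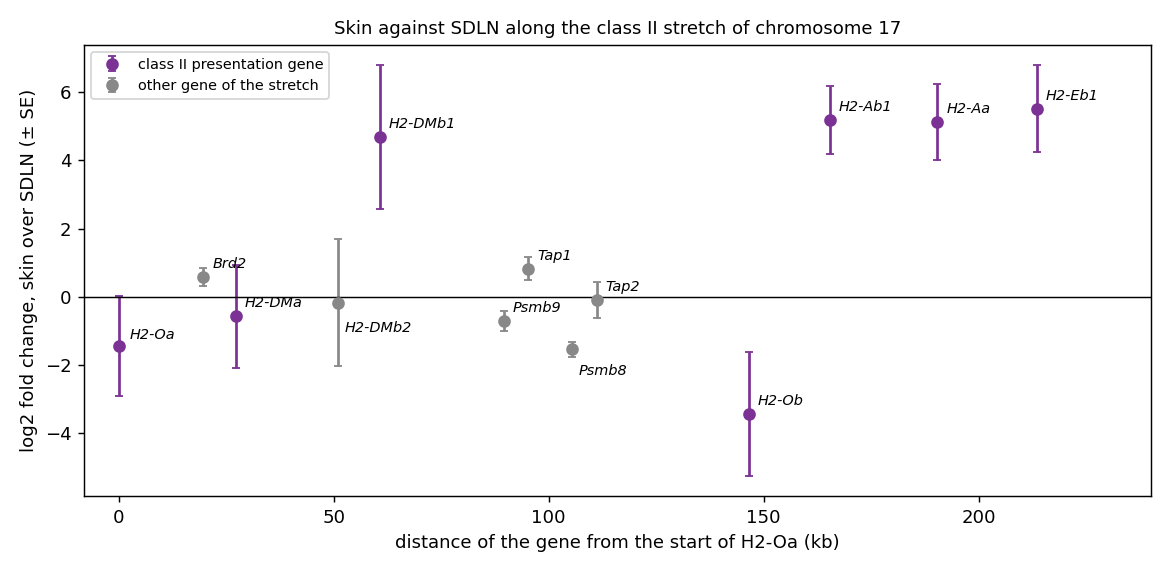
Log2 fold change, skin over SDLN, with its SE, of the 13 genes of the table between H2-Oa and H2-Eb1, by distance from the start of H2-Oa in kb; purple points are class II presentation genes and grey points the other genes. H2-Ab1, H2-Aa and H2-Eb1 at the right stand at 5.13 to 5.51, next to H2-Ob at -3.42.

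Genes around class II that the choice of members did not name were mostly not different by the test. Of 36 tested genes in 4 lists (relatives of the chains, transcription, endosomal proteolysis and costimulation), 3 rose in skin, none fell (0 of 36) and 33 did not pass by edgeR's test. At an unadjusted p under 0.05, 4 genes were lower, and DESeq2 and limma-voom each called 1 lower. Over all genes tested, edgeR called 3.28% higher and 3.96% lower, 7.24% in all. The median log2 fold change of the 36 was 0.55. The 3 that rose were Jak2, Irf4 and Cd83.

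Jak2, a kinase of the interferon-gamma receptor, which acts upstream of Ciita, had 66.6, 76.2 and 54.3 CPM in SDLN and 328, 192, 154 and 295 CPM in skin (log2 fold change 1.88, SE 0.36, edgeR adjusted p = 0.0340). Irf4, a transcription factor of activated lymphocytes and effector Tregs, had 114, 107 and 69.4 CPM in SDLN and 682, 595, 211 and 353 CPM in skin (log2 fold change 2.25, SE 0.46, edgeR adjusted p = 0.0380). Cd83, a surface protein that stabilises class II on the cell surface, had 418, 383 and 410 CPM in SDLN and 1798, 870.1, 846 and 1196 CPM in skin (log2 fold change 1.54, SE 0.32, edgeR adjusted p = 0.0380). All 4 skin libraries were above all SDLN libraries for each of these genes, as they were for 10.1% of all tested genes. None of the 3 passed without any 1 SDLN library, where only 43 to 76 genes were called in all. Of the 36 genes, 0 were called there and 5 to 6 had an unadjusted p under 0.05. Without skin 1 the count was 8, and Cd83 also did not pass without skin 4. Highest adjusted p-values over all alternatives were 0.221 for Jak2, 0.176 for Irf4 and 0.248 for Cd83. The 3 did not share the members' order among skin libraries, since skin 1 was highest for all of them.

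The factors that bind the promoter element showed no call. Rfx5 had 23.3 to 28.8 CPM in SDLN and 3.41, 31.3, 21.2 and 37.9 CPM in skin, and Rfxank had 54.9 to 60.3 against 41.7 to 53.1 CPM. Of 12 genes of endosomal proteolysis, 0 were called in either direction by edgeR, with 1 higher and 2 lower at an unadjusted p under 0.05, 1 and 1 by DESeq2 and 0 and 1 by limma-voom. Ctsb, cathepsin B and the most abundant of them, had 924, 842 and 984 CPM in SDLN against 833, 431, 1027 and 559 CPM in skin. Among the relatives, H2-Ea-ps, the I-E alpha locus, had no count in any library, H2-Eb2 had counts in SDLN 2 and 3 alone, and H2-DMb2 had 0.475 to 2.24 CPM in SDLN and 5.28 CPM in skin 4, with at most 0.0920 CPM in the other skin libraries.

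Class I presentation is the pathway that shows peptides from the cytosol on nearly all nucleated cells. Among 16 tested class I genes, the edgeR test found 0 higher and 1 lower in skin, a share close to the 7.24% called over all genes, and the median log2 fold change was -0.30. The difference from the class II lists was not tested. At an unadjusted p under 0.05, 2 were higher and 4 lower. DESeq2 called 1 higher and 2 lower, limma-voom called 0 and 1, and edgeR without skin 1 called 3 in all. Psmb8, an immunoproteasome subunit, fell, with 1018, 871 and 1069 CPM in SDLN and 415, 359, 316 and 267 CPM in skin (log2 fold change -1.54, SE 0.23, edgeR adjusted p = 0.0119). It did not pass without any 1 SDLN library, and its edgeR, DESeq2 or limma adjusted p ran from 1.04e-07 to 0.179 over the alternatives. H2-K1, a class I heavy chain, had 2788 to 5317 CPM in SDLN and 3684 to 5550 CPM in skin. Nlrc5, the class I counterpart of Ciita, had 318 to 415 CPM in SDLN and 226 to 370.2 CPM in skin.

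Markers of other cells that make class II moved with the chains in part, and their share in the result was not tested. Bulk libraries cannot tell more cells of a type from more transcript per cell. The 12 dendritic cell markers summed to 4.09 to 5.11 CPM in SDLN and to 59.6, 105, 71.7 and 411 CPM in skin 1 to 4. The 14 macrophage and monocyte markers in the table summed to 16.6 to 26.4 CPM in SDLN and to 199, 224, 221 and 822 CPM in skin. Skin 4 was highest for both lists, as it was for the chains. Skin 3 was not the lowest for either, although its chains were: H2-Aa, H2-Ab1 and H2-Eb1 summed to 1051, 1395, 129 and 4132 CPM in skin 1 to 4. Set against the dendritic cell markers, the chains were 17.6, 13.3, 1.796 and 10.1 times as high in skin 1 to 4 and 7.21 to 12.5 times as high in SDLN. Set against the macrophage and monocyte markers, they were 5.28, 6.22, 0.582 and 5.03 times as high in skin and 1.89 to 2.79 times as high in SDLN. Skin 1, 2 and 4 were thus above SDLN on the macrophage ratio, and skin 3 was below SDLN on both.

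**Figure D4:**
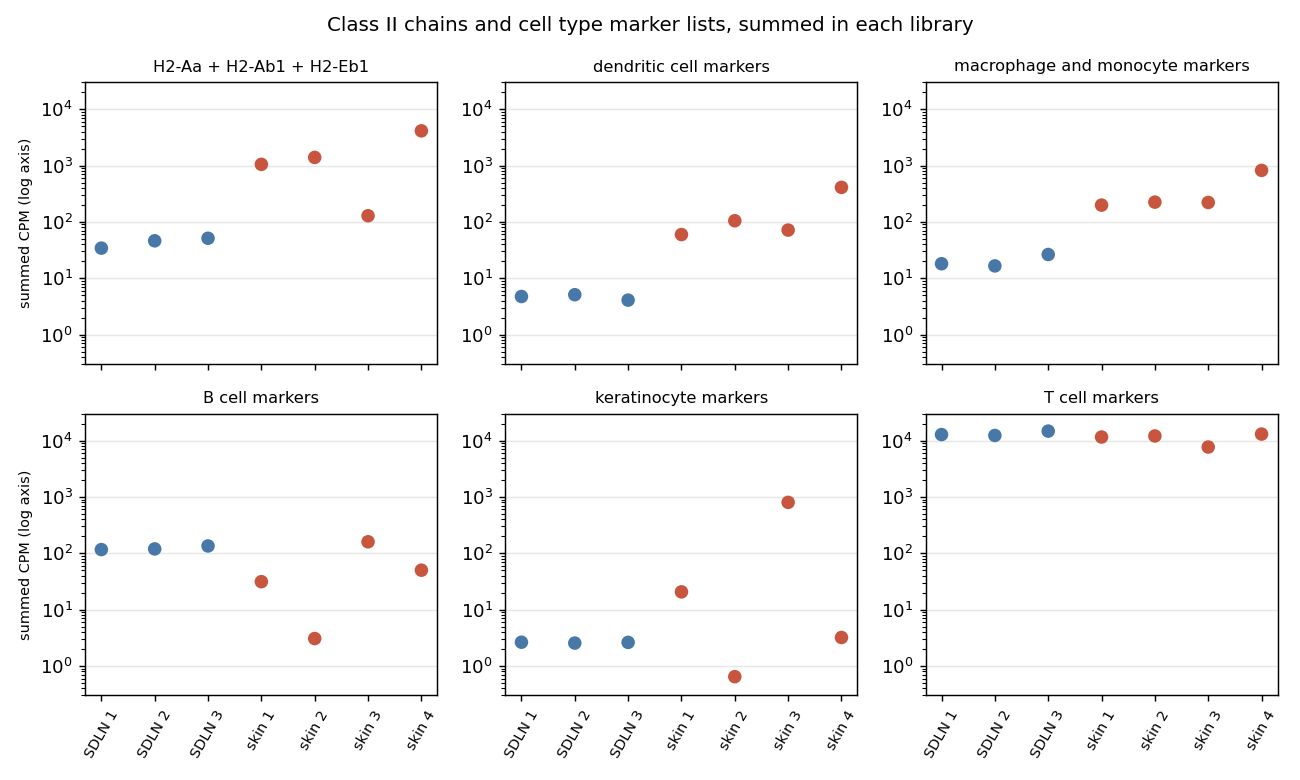
Summed CPM on a log axis, in each library, of H2-Aa, H2-Ab1 and H2-Eb1 and of 5 lists of cell type markers; blue points are SDLN libraries and red points skin libraries. Dendritic cell and macrophage markers are above SDLN in all skin libraries and highest in skin 4, whereas the keratinocyte markers are high in skin 3, at 802 CPM.

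The marker lists were uneven within themselves. Of the 12 dendritic cell markers, 3 were tested and 1 rose, Cd209a, a lectin of dermal dendritic cells, with 6 counts in all over SDLN and 25.7, 3.40, 36.8 and 265 CPM in skin (log2 fold change 9.12, edgeR adjusted p = 0.0385). Clec9a had no count in any library, and Itgax, the CD11c chain, had counts in skin 4 alone, at 22.0 CPM. Of 8 tested macrophage markers, 2 rose, Lyz2 (log2 fold change 4.06, adjusted p = 0.0380) and the Fc receptor chain Fcer1g (log2 fold change 5.96, adjusted p = 0.0443), by edgeR's test. DESeq2 called all 3 tested dendritic cell markers and 6 of the 8 macrophage markers higher, and the same numbers had an unadjusted p under 0.05 in edgeR. Over all 11376 genes tested, edgeR called 3.28% higher, and DESeq2 called 923 higher. Without skin 4, edgeR called 0 of 2 dendritic cell markers, both with an unadjusted p under 0.05, and 1 of 6 macrophage markers. Lyz2, a lysozyme of myeloid cells, had 68.2, 175, 63.5 and 471 CPM in skin 1 to 4. Of the Langerhans cell markers, Cd207, which encodes langerin, had no count anywhere, while Epcam, an adhesion molecule also made by epithelia, rose from 3.14 ± 0.789 to 38.2 ± 15.8 CPM (SD, n = 3 and n = 4; log2 fold change 3.60, edgeR adjusted p = 0.0380). None of these 4 genes passed without any 1 SDLN library, and of the 4 only Lyz2 passed without skin 4. Their highest adjusted p-values over all alternatives were 0.356 for Cd209a, 0.267 for Lyz2, 0.394 for Fcer1g and 0.364 for Epcam.

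B cell markers moved with H2-Ob and H2-Oa in part: their sum was below SDLN in skin 1, 2 and 4. In skin 3, where H2-Ob and H2-Oa had no count, it was above SDLN. The 12 markers summed to 117 to 135 CPM in SDLN and to 31.4, 3.07, 160.1 and 50.2 CPM in skin 1 to 4. In skin 3, 157 of the 160.1 CPM came from Ebf1, and the other 11 markers summed to 3.61 CPM. Of 9 tested, 3 fell, 0 rose and 6 did not pass, with 0 higher at an unadjusted p under 0.05, by DESeq2 or by limma-voom. Over all genes tested, edgeR called 3.96% lower. Without skin 3, 5 of the 9 markers fell. Among those that fell were Bank1, a scaffold of B cell receptor signalling, and Fcer2a, the low-affinity IgE receptor, and neither had a count in any skin library. With 3 counts per skin library as the floor, Bank1, at 19.3, 21.1 and 16.4 CPM in the SDLN libraries, was at least 75.9-fold lower (edgeR adjusted p = 0.0380, and up to 0.345 over the alternatives). Fcer2a, at 3.53 to 4.94 CPM in SDLN, was at least 17.8-fold lower. In skin 1 and 4, the libraries where H2-Ob was detected, Cd79b was also detected, at 31.0 and 38.4 CPM, against 0 and 0.529 CPM in skin 2 and 3. Only 2 of the 12 markers had a count in skin 1, and 2 in skin 4, so Cd79b made up most of the sum in both. The part of B cell transcripts in the H2-Ob and H2-Oa levels was not tested.

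The genes nearest to the chains in pattern were sought among the 6809 tested genes with an established symbol, members left out, that averaged 20 CPM or more over the 7 libraries. Likeness was the root mean square difference, over the 7 libraries, between centred log2(CPM + 1) profiles and the mean profile of Cd74, H2-Aa, H2-Ab1 and H2-Eb1. The median difference over these genes was 2.49 log2 units. Among the members, Ciita was at 1.20, H2-DMb1 at 1.96, H2-Oa at 2.96, H2-DMa at 3.69 and H2-Ob at 4.56. The 8 nearest genes were Fgd2 (0.640), Ptpro (0.656), Lyz2 (0.793), Pcyt1a (0.838), Rrad (0.882), Trim36 (0.956), Atp2b4 (0.989) and Epcam (0.997). Fgd2, a guanine nucleotide exchange factor, had 0, 2.42 and 1.47 CPM in SDLN and 50.1, 78.9, 4.41 and 74.5 CPM in skin, low in skin 3 as the chains were. Ptpro, a receptor tyrosine phosphatase, had no count in SDLN or skin 3 and 20.4, 22.1 and 122 CPM in skin 1, 2 and 4. All 8 genes, like the chains, were lowest among skin libraries in skin 3. They were picked by likeness to the chains, so this is no separate result.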

How the data were processed

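Messenger RNA of 7 Treg libraries was sequenced; per the labels' protocols, RNA was column-purified from frozen sorted cells and cDNA made with a SMARTer Ultra Low Input kit. The authors deposited raw read counts per gene symbol, with no normalization; the submitters' processing notes list HTSeq 0.6.1, SAMtools 0.1.19.0, CASAVA 1.8.2, Bowtie2 2.1.0.0 and TopHat2 2.0.12, and the build mm10. The 5 summary lines were left out; alignments to several places were 61.2% to 70.4% of all counts in the table, and reads outside genes 10.0% to 17.1%. Symbols turned into dates, which may hide the class II ubiquitin ligase, were given no value.

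Genes were filtered with filterByExpr (minimum count 10), scaled by TMM and tested, two-sided, with edgeR 4.0.16 in R 4.3.3 (robust quasi-likelihood, tissue as sole term), with Benjamini-Hochberg adjustment over all 11376 genes at 0.05. The SE of a log2 fold change is its size divided by the square root of the F statistic of that test, so it restates the test. Coordinates and exon lengths are from GENCODE M21 on the same build. A count of 3 is the floor for a group at 0, and floors cover counting error alone. The members and lists were chosen with earlier results of these data known.

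Named genes are the members, up to 2 called genes of each list with the smallest adjusted p or else its most abundant gene, the 8 nearest in pattern, and H2-Ea-ps; Brd2, H2-K1, Nlrc5, Rfx5, Rfxank, Itgax, Clec9a, Cd79b, Ebf1 and H2-Eb2 were named after their values were seen. Of the mast cell list, Cpa3 was lower, at 1.68 CPM in SDLN against no count in skin, and of the keratinocyte list Krt10, at 2.54 against 0.0220 CPM. Neither list fell as a whole. Mast cell markers summed to 6.64 to 12.6 CPM in SDLN and to 0, 0.162, 9.43 and 26.2 CPM in skin 1 to 4. Keratinocyte markers summed to 2.55 to 2.65 CPM in SDLN and to 20.7, 0.647, 802 and 3.21 CPM in skin. Col3a1 led the fibroblast list, and Ctla4 (higher) and Lck (lower) were the called T cell markers. Alternatives were limma-voom (limma 3.58.1), DESeq2 1.42.0, each library left out, a replicate block, scaling by RLE or none, all genes with a count or those averaging 5 CPM, and CPM on raw totals.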

Additional observations from a re-analysis of the deposited data

Results flagged for a closer look

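H2-DMb1 in skin 4, at 80.4 CPM, stood apart from the other skin libraries, at 0, 10.8 and 13.0 CPM: its gap to the next library was 0.838 of the whole skin range, past Dixon's critical value for 4 samples. Both ends of the skin range were examined for all 9 members, chance marks about 1 in 20 groups, and no other member passed. The spread among skin libraries was known when the genes were chosen, so the mark is no test of it. Reads of H2-DMb1 and H2-DMb2 are also hard to separate, and the value is given as a description. Skin 4 also had the highest dendritic cell and macrophage marker sums, at 411 and 822 CPM, and their part in this value was not tested.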

How the results depend on the processing

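The number of called genes was 824 in the fit described, 258 without the low-count filter, 384 with a mean of at least 5 CPM, 1430 with DESeq2, and 43 to 1270 with 1 library left out. For the members the count was 3, and it was 1 without the filter, 5 with DESeq2, 1 with limma-voom (H2-Ob, lower) and 0 to 4 with 1 library left out. For the class II pathway genes it was 3, and 6 with DESeq2, 0 without the filter (10 at an unadjusted p under 0.05) and 0 to 8 with 1 library left out; for class I genes it was 1, and 3 with DESeq2 and 0 to 3 with 1 library left out. With a replicate block, on the 6 libraries numbered alike, edgeR called 42 genes, 0 members, 0 pathway genes and 0 class I genes, each of the last 3 sets with 5 at an unadjusted p under 0.05. Deviations of same-numbered libraries correlated at 0.0672, -0.00176 and -0.0401, and those of differently numbered libraries at -0.0793 to 0.102. These values show no pairing by number, but with so few libraries they cannot exclude it for numbers 1 and 2. SDLN 3 and skin 3 had 3877 and 2 counts of the Y-linked gene Ddx3y, and 4 and 10335 counts of Xist. Their animals thus differed in sex, so at number 3 the block did not join libraries of the same animals. The log2 fold changes of all 9 members kept their sign under all 14 alternatives, within 3.78 to 5.52 for H2-Aa, 4.27 to 5.60 for H2-Ab1, 3.87 to 5.91 for H2-Eb1, -9.10 to -3.01 for H2-Ob and -3.57 to -0.16 for H2-DMa. H2-DMb2, near 0, changed sign in 5 fits with a library left out, and ranged from -0.62 to 0.24 over the fits with 1 left out. The cause of these shifts was not tested. All 63 member levels moved by less than 1 SD on raw library totals. A level under 0.276 CPM could not be told from none at this depth.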
